A study of Mus musculus with 19 samples.

Results

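Sult5a1, Gm4316, Gm42031 and Ccdc7a are 4 genes of mouse chromosome 8 whose read counts differed widely between mice that lack macroH2A1.1 (KO) and wild-type mice (WT). They were picked by that difference, from 1370 chromosome 8 genes and 26506 genes in all in the count table, so the KO and WT levels below are descriptions without a test. The RNA of whole homogenised kidney and liver of male mice was sequenced after poly(A) selection. The 4 groups were 5 KO and 5 WT kidneys and 5 KO and 4 WT livers; the WT mouse numbered 23 is represented by its kidney alone, as its liver was not analysed here. Titles carry numbers that are used here as mouse numbers, though the labels do not say in words that a kidney and a liver with a shared number are from 1 animal, and no test uses them unless stated.

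MacroH2A1 is a histone H2A variant with a large macrodomain, encoded by H2afy, and its transcript is spliced to either of a pair of alternative exons that yield macroH2A1.1 or macroH2A1.2. The KO allele carries a deletion of the floxed exon 6b, made by Cre protein in zygotes, so every tissue should carry it and macroH2A1.2 should remain. KO and WT mice came from crosses of heterozygotes on a C57BL/6J background, backcrossed for at least 10 generations. The labels give no ages, and they name a standard and a ketogenic diet without saying which mouse received which. The libraries held between 25919138 and 35131720 counts. H2afy, the targeted gene, had 49 to 61.1 CPM, that is reads scaled to library size, in KO kidneys and 65.6 to 90.8 in WT kidneys, with 42.9 to 52.9 in KO livers and 53.5 to 86.4 in WT livers. The lowest WT value in both tissues was that of the library labelled WT 24. Reads summed over the whole gene do not show which alternative exon was used, so H2afy checks the labels only in part. The libraries labelled WT 24 lie near the KO libraries for H2afy, and the mouse labelled KO 16 has the lowest KO values of both lincRNAs described below. Other values of these mice lay with their labels. KO 16 had 35 counts of Ccdc7a in liver, where WT livers had 0. In each tissue its Sult5a1 was above every WT library and its H2afy below every WT library. WT 24 had 0 counts of Ccdc7a and a Gm42031 level within the range of the other WT libraries in both tissues. Ccdc7a, Sult5a1 and Gm42031 were chosen by their difference between these labels, so their values are no check on the labels. Either label could be wrong. That was not tested, and every KO and WT mean or ratio below rests on the labels as given. Without both mice, the log2 fold changes, KO over WT, were 0.52 in kidney and 1.64 in liver for Sult5a1, 5.23 in kidney and 5.79 in liver for Gm42031, and 7.97 in liver for Gm4316, and the bound for Ccdc7a in liver was 25-fold.

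Cytosolic sulfotransferases (SULT enzymes) move a sulfonate group from the donor PAPS to hydroxyl or amine groups of hormones, bile acids, neurotransmitters and drugs, which usually makes them more soluble and ready for excretion. PAPS is made from ATP and inorganic sulfate by the PAPS synthases, and the liver is the best known site of this conjugation. Sult5a1 encodes a member of this family. Gm4316 and Gm42031 are annotated as long intergenic non-coding RNAs (lincRNAs), a class of transcripts without a known protein product that are often present at low level and in few tissues. Ccdc7a encodes a coiled-coil domain protein, and its human counterpart is known mainly from testis.

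Positions are given on GRCm38 with the GENCODE mouse release 21 annotation. Sult5a1 (ENSMUSG00000000739) covers chr8:123140192-123158315 on the minus strand. Gm4316 (ENSMUSG00000110537) covers chr8:123165255-123178765 on the plus strand. This pair lies head to head, with the annotated 5′ ends 6940 bp apart. Gm42031 (ENSMUSG00000110386) covers chr8:85125872-85132289 on the minus strand, 38.0 Mb from Sult5a1. Zfp791, a zinc finger protein gene on the same strand, lies 2777 bp beyond its 3′ end. Ccdc7a (ENSMUSG00000025808) spans 331283 bp, chr8:128734235-129065517, on the minus strand, and its start lies 5.57 Mb from that of Gm4316. No exon of Sult5a1, Gm4316 or Gm42031 overlapped an exon of another annotated gene on either strand. Ccdc7a shares 573 bp of exon with Gm3952 on its own strand, so some of its reads could belong to that gene.

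The promoter windows of the 4 genes are shown because their transcripts stood at very different levels between KO and WT libraries, and because they let the 4 starts be compared. Each runs from 250 bases before to 50 bases after the RefSeq start on GRCm38.p6, 5′ to 3′ on the strand of the gene, and capitals mark matches to TATAAA (the TATA box), to the box named for its letters CCAAT, or to GGGCGG (the GC box), searched on both strands.
Sult5a1, chr8:123158231-123158530, minus strand: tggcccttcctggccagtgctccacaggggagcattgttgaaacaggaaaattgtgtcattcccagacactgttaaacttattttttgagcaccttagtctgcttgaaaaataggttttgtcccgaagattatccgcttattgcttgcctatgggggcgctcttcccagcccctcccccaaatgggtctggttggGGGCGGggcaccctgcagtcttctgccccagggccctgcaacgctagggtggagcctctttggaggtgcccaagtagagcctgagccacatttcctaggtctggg
Gm4316, chr8:123172312-123172611, plus strand: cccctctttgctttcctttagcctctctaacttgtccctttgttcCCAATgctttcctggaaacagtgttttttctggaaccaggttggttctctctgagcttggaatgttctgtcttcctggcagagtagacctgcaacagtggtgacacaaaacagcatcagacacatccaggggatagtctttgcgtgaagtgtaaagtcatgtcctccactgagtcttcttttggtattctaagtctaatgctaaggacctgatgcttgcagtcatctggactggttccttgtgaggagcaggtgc
Gm42031, chr8:85131765-85132064, minus strand: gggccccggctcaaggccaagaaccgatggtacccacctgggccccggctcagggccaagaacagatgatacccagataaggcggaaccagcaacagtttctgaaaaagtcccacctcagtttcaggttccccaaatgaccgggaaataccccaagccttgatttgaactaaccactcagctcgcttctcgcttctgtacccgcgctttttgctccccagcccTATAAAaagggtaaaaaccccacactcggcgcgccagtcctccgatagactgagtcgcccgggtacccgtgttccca
Ccdc7a, chr8:129065443-129065742, minus strand: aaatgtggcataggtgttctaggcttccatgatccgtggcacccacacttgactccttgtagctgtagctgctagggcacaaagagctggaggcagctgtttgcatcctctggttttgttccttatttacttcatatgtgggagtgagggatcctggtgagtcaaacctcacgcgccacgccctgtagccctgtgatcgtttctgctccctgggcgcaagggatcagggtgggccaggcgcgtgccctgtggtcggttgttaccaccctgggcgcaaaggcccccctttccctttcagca

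The 4 windows held different motifs. That of Sult5a1 had a GC box at position -55 from the start, that of Gm4316 a CCAAT match at -205, and that of Gm42031 a TATA box at -27, while that of Ccdc7a held none of the 3 letter strings. Among 32817 RefSeq promoter windows of the same length, 13.6% held TATAAA, 37.4% held CCAAT and 35.6% held GGGCGG, so a match somewhere in a window is not rare. The shares of windows with a match at the positions seen here, such as -27, were not computed. The Gm42031 window had 16 CpG dinucleotides and that of Ccdc7a 10, against a median of 7 over all windows. The Sult5a1 window had 5 and that of Gm4316 had 1. The GC content was 56.7% for Gm42031, 56.7% for Ccdc7a, 54.7% for Sult5a1 and 47% for Gm4316, beside a median of 52.7%. The RefSeq start of Gm4316 lies inside the GENCODE gene body, so its window is not the region next to the Sult5a1 start. The whole Gm42031 window likewise lies inside the GENCODE body of that gene. Its motif position and CpG count therefore refer to the RefSeq start and not to the GENCODE start.

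Sult5a1 had reads in every library. Its level in KO livers was 72.3, 70.3, 59.6, 39.8 and 81.8 CPM in mice 13, 14, 15, 16 and 18, and in WT livers it was 23.1, 17.1, 27.7 and 27.9 CPM in mice 19, 20, 22 and 24. Every KO liver stood above every WT liver, and KO mouse 16 was the KO liver nearest to the WT range. The means were 64.8 ± 16 CPM in KO livers (SD, n = 5) and 24 ± 5.08 CPM in WT livers (SD, n = 4), a ratio of 2.7, or 2.96 without mouse 16. The fitted log2 fold change, KO over WT, was 1.43 (SE 0.21). In whole tissue, more RNA per cell and more cells that express a gene cannot be told apart.

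In kidney, Sult5a1 was much lower and the groups lay close. The KO kidneys had 3.1, 4.26, 3.84, 3.67 and 3.65 CPM in mice 13, 14, 15, 16 and 18, and the WT kidneys had 1.94, 2.5, 2.95, 2.96 and 1.42 CPM in mice 19, 20, 22, 23 and 24. The groups did not overlap, but the lowest KO kidney stood only 1.05 times above the highest WT kidney. The means were 3.7 ± 0.414 CPM in KO kidneys and 2.36 ± 0.67 CPM in WT kidneys (SD, n = 5 each), with a ratio of 1.57 and a fitted log2 fold change of 0.65 (SE 0.20). Mouse 16, low among KO livers, was 98.9% of the mean of the other KO kidneys for Sult5a1 and 56.1% of the mean of the other KO livers.

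Gm4316, the lincRNA that points away from Sult5a1, was almost without reads in WT mice and in 1 KO mouse. The KO livers had 20.8, 14.8, 4.19, 0.033 and 26.4 CPM in mice 13, 14, 15, 16 and 18, from 696, 457, 146, 1 and 752 counts. The WT livers had 0.0295, 0.1, 0.0605 and 0.0387 CPM in mice 19, 20, 22 and 24, from 1, 3, 2 and 1 counts. So 4 of 5 KO livers lay at least 41.7 times above the highest WT liver, and the liver of KO mouse 16 lay among the WT livers. The means were 13.2 ± 11.1 CPM in KO livers (SD, n = 5) and 0.0572 ± 0.0315 CPM in WT livers (SD, n = 4), a ratio of 231, or 289 without mouse 16. The fitted log2 fold change was 7.76 (SE 1.71).

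The kidneys divided in the same way for Gm4316. The KO kidneys had 2.6, 5.76, 2.74, 0.0391 and 3.32 CPM in mice 13, 14, 15, 16 and 18, and the WT kidneys had 0, 0.142, 0.0703, 0.207 and 0 CPM in mice 19, 20, 22, 23 and 24. KO mouse 16, with 1 count, again lay within the WT range, and the other KO kidneys lay at least 12.5 times above the highest WT kidney. The means were 2.89 ± 2.04 CPM in KO kidneys and 0.0839 ± 0.0907 CPM in WT kidneys (SD, n = 5 each), a ratio of 34.4, or 42.9 without mouse 16. The WT kidneys held 14 counts in all, so the ratio rests on few WT reads. With all libraries, Gm4316 in kidney was below the filter on low counts, so it has no fitted value there. Without mouse 16 it passed the filter, with a fitted log2 fold change of 5.28.

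Gm42031, the lincRNA near Zfp791, showed the same division, with reads in every library. The KO kidneys had 19, 20.8, 21, 1.17 and 28.1 CPM in mice 13, 14, 15, 16 and 18, and the WT kidneys had 0.47, 0.568, 0.809, 0.533 and 0.784 CPM in mice 19, 20, 22, 23 and 24. KO mouse 16 lay just above the WT kidneys and far below the other KO kidneys, of whose mean it was 5.27%. The means were 18 ± 10 CPM in KO kidneys and 0.633 ± 0.154 CPM in WT kidneys (SD, n = 5 each), a ratio of 28.5, with a fitted log2 fold change of 4.84 (SE 0.75).

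The livers divided likewise for Gm42031. The KO livers had 12.7, 3.23, 7.14, 0.297 and 5.17 CPM in mice 13, 14, 15, 16 and 18, and the WT livers had 0.059, 0.0334, 0.272 and 0.232 CPM in mice 19, 20, 22 and 24. The liver of mouse 16, with 9 counts, was level with the liver of WT mouse 22, also with 9 counts. The means were 5.7 ± 4.64 CPM in KO livers (SD, n = 5) and 0.149 ± 0.121 CPM in WT livers (SD, n = 4), a ratio of 38.2, or 47.2 without mouse 16, with a fitted log2 fold change of 5.24 (SE 1.08).

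Ccdc7a was read in KO livers and had 0 counts in every WT library of both tissues. The KO livers had 7, 32, 28, 35 and 32 counts in mice 13, 14, 15, 16 and 18, or 0.209, 1.03, 0.803, 1.15 and 1.12 CPM. Here KO mouse 16 was the highest KO liver and mouse 13 the lowest, unlike the order for the lincRNAs. The KO livers averaged 0.865 ± 0.391 CPM (SD, n = 5). Against a floor of 3 counts over the whole WT liver group, which equals 0.0244 CPM, the 134 counts summed over the KO livers, which equal 0.848 CPM, make Ccdc7a at least 34.7-fold higher in KO livers. The KO kidneys had 0, 1, 1, 2 and 0 counts, too few for a fold. Ccdc7b, a neighbouring gene of the same family name, had 0 counts in every KO liver, and in WT livers it had 0 counts except for 2 in mouse 22.

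**Figure D1:**
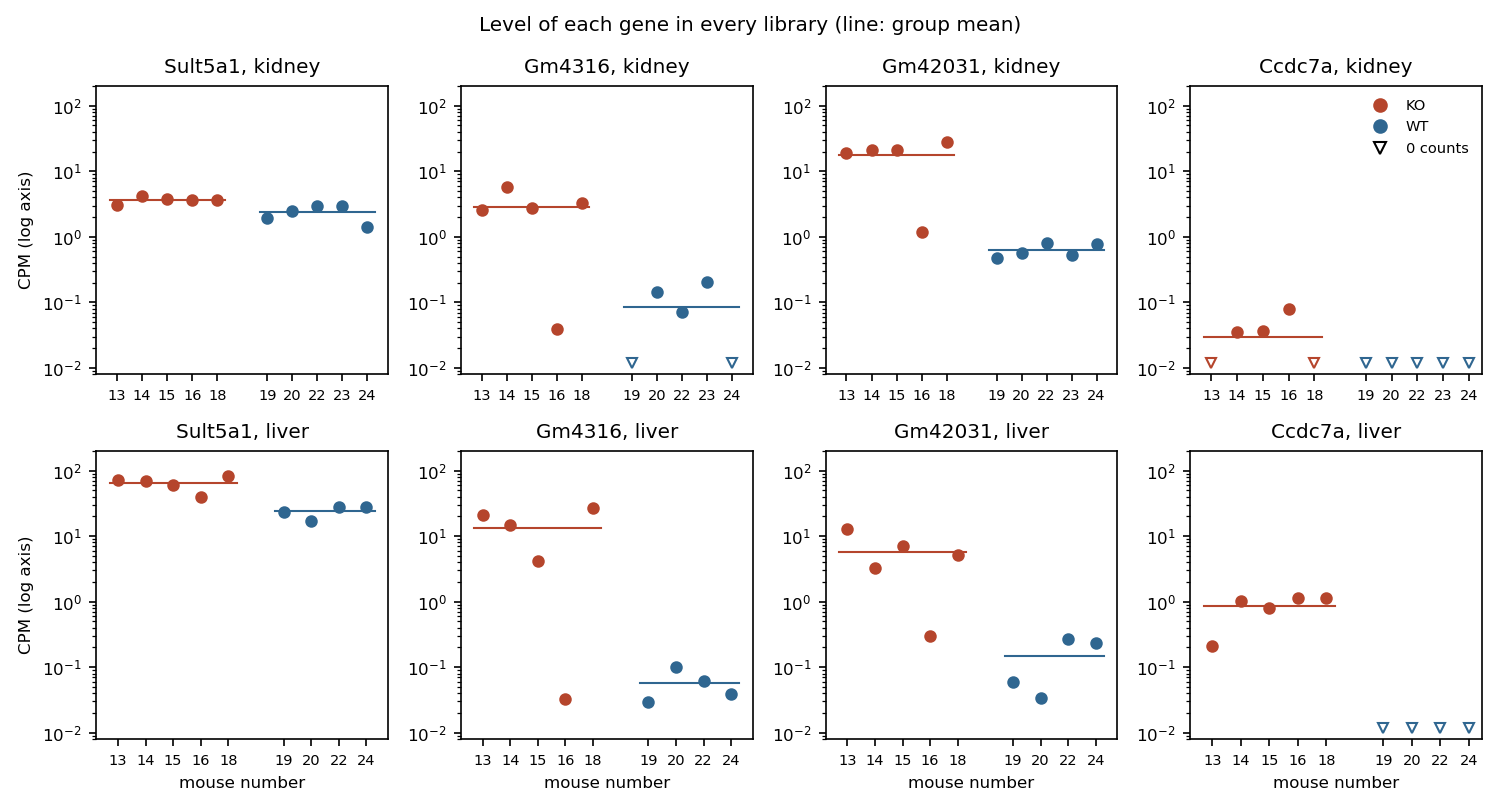
Each panel plots 1 gene in 1 tissue, with CPM on a log axis and the mouse number along the bottom; points are single libraries, horizontal lines are group means and open triangles are libraries with 0 counts. For Gm4316 and Gm42031, KO mouse 16 lies near the WT libraries in both tissues, whereas for Ccdc7a in liver it has the highest value, 1.15 CPM.

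Not overlapping between groups was itself uncommon among all genes tested. Every KO library was above every WT library for 0.795% of 14591 genes in liver, where Sult5a1, Gm42031 and Ccdc7a did so, and for 0.29% of 17269 genes in kidney, where Sult5a1 and Gm42031 did so. The genes were chosen by this contrast, so nothing is read from their number. At an adjusted p under 0.05 in edgeR's quasi-likelihood test, 0.00579% of genes passed between KO and WT kidneys, which is 1 gene, Unc5a. Between livers 0% passed. These numbers describe all genes tested, and no call or lack of a call is read for the 4 genes under any tool. In kidney, Gm4316 and Ccdc7a were below the filter and not tested. At an unadjusted p under 0.05 the counts were 509 genes in kidney, or 2.95%, and 609 in liver, or 4.17%. DESeq2 called 15 genes in kidney and 42 in liver, and limma voom called 7 and 5.

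Mouse 16 stood apart for the lincRNAs but not for the targeted gene. Its H2afy level was 54.4 CPM in kidney and 52.9 CPM in liver, within the range of the KO kidneys and at the top of the KO livers, and below every WT library of the same tissue, the closest being the library labelled WT 24. For Gm4316 it had 1.08% of the mean of the other KO kidneys and 0.199% of that of the other KO livers. For Gm42031 it had 4.21% in liver. The mouse was last of the 5 KO mice for both lincRNAs in both tissues, first for Ccdc7a in liver, and for Sult5a1 last in liver and in the middle in kidney.

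Other chromosome 8 genes had differences of similar or greater size than Sult5a1. Of 904 chromosome 8 genes tested in kidney, Gm42031 had the largest absolute log2 fold change and Sult5a1 ranked 20; of 799 tested in liver, Gm4316 ranked 1, Gm42031 ranked 3 and Sult5a1 ranked 5, while no size is given for Ccdc7a because its WT counts were 0. The other genes with the largest values in kidney, all above Sult5a1, were Star, the cholesterol carrier of steroid-making cells, with a log2 fold change of 1.93, Ucp1, the uncoupling protein of brown fat, with 1.78, and Nrn1l with 1.09. Star reached 87.2 CPM in its highest KO kidney while the lowest had 4.26, and WT kidneys ranged from 4.85 to 6.51 CPM, so the groups overlapped. Ucp1 likewise overlapped, at 1.33 to 13.7 CPM in KO kidneys and 0.299 to 3.76 CPM in WT kidneys. In liver they were Acta1, skeletal muscle actin, with 2.13, which is above Sult5a1, Ces2b, a carboxylesterase gene, with -1.39, and Zfp791 with 1.39.

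Levels in liver against kidney were not used in choosing the genes and were tested in each genotype. Sult5a1 was higher in liver in both. In KO mice the log2 fold change, liver over kidney, was 5.05 (SE 0.19, adjusted p = 6.72e-12, edgeR's quasi-likelihood test over all genes), or 33.1-fold. In WT mice it was 4.24 (SE 0.21, adjusted p = 2.3e-10), or 18.9-fold. These fits did not use the mouse numbers. With the mouse number as a block, on the 4 WT mice with both tissues, the WT value was 4.32 (adjusted p = 5.54e-08, the same edgeR test). With CPM scaled across both tissues, liver exceeded kidney for every number with both libraries, by 20 to 43.8 times in the 5 KO mice and by 12.9 to 36.5 times in the 4 WT mice. The KO numbers were not taken to pair libraries, so the KO ratios by number are descriptions. The size depends on the scaling: with library totals in place of TMM, the fitted values were 4.11 in KO mice, or 17.2-fold, and 3.35 in WT mice, or 10.2-fold, and both passed. Tissue differences are the rule in these data: 73.8% of 16823 genes passed in KO mice and 75.4% of 17428 genes passed in WT mice. Whether the tissue difference itself differed between genotypes was not tested, since that contrast was used in the choice.

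The lincRNAs leaned in opposite directions between the tissues by value. Gm4316 was higher in liver in KO mice, by 3.11 on the log2 scale (SE 1.09, adjusted p = 0.0263), or 8.61-fold, and the liver to kidney ratio, scaled across both tissues, was 15.1, 4.76, 2.87 and 15.3 in KO mice 13, 14, 15 and 18, while mouse 16 had 1 count in each tissue. With library totals as the scaling the value was 2.14, or 4.42-fold, and did not pass (adjusted p = 0.0837). Nor did the call hold without mouse 13 (2.84, adjusted p = 0.115), without mouse 15 (3.32, adjusted p = 0.0527) or without mouse 18 (2.74, adjusted p = 0.0946), and without mouse 16 the value was 3.12 (adjusted p = 0.000277). In WT mice Gm4316 was below the filter. Gm42031 was lower in liver by value. In KO mice its log2 fold change was -0.73 (SE 0.83) and did not pass (adjusted p = 0.445). Scaled across both tissues, its ratio was 1.25 in KO mouse 13 and between 0.288 and 0.638 in the other 4 KO mice. With the mouse number as a block the KO value was -0.89 and passed (adjusted p = 0.0207). That fit pairs KO libraries by number, a pairing that was not taken to hold, so nothing is read from its p. For the same reason the KO ratios by number are descriptions. With library totals as the scaling the KO value was -1.68, or 3.2-fold lower, and did not pass (adjusted p = 0.0883). In WT mice the value was -1.17 (SE 0.50, adjusted p = 0.045), or -2.05 with library totals (adjusted p = 0.00143). There the gene had 15 to 23 counts in the kidneys and 1 to 9 in the livers, so it entered the comparison through kidney, where it is higher, and nothing is read from that p. At a filter of 1 CPM it was not tested in WT mice, and the adjusted p was above 0.05 without mouse 19 (-0.96, adjusted p = 0.129), mouse 20 (-0.89, adjusted p = 0.149) or mouse 24 (-1.34, adjusted p = 0.0622). Ccdc7a was below the filter of both tissue comparisons.

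**Figure D2:**
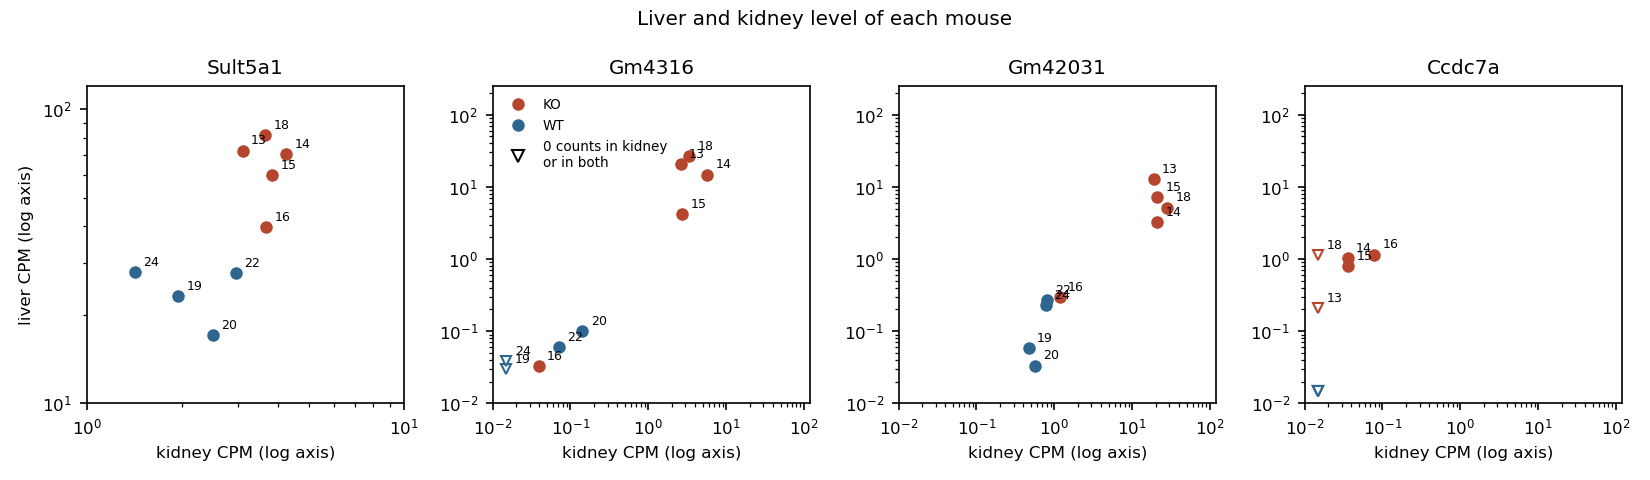
For each gene, the liver level of a mouse (CPM, log axis) is plotted against its kidney level (CPM, log axis), each scaled within its tissue, with mouse numbers beside the points; the Sult5a1 panel has narrower axes than the other 3, and open triangles mark mice with 0 counts in kidney or in both tissues. KO mouse 16 lies among the WT mice for Gm4316 and next to WT mice 22 and 24 for Gm42031, while for Sult5a1 its kidney level of 3.67 CPM is among those of the other KO mice. Points join libraries by number, which for KO mice was not taken to show pairing.

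The genes next to these 4 on the chromosome mostly differed little between KO and WT. Around Sult5a1 and Gm4316, the nearest gene on the high-coordinate side in both tissues was Dpep1, a membrane dipeptidase of kidney tubules, at 164 ± 4.77 CPM in KO kidneys and 162 ± 10.4 CPM in WT kidneys (SD, n = 5 each), a log2 fold change of 0.02. In liver, Dpep1 had 0.43 (SE 0.30, adjusted p = 1). On the other side lay Cpne7, a copine gene, with 0.12 in kidney (SE 0.17, adjusted p = 0.999), and, in liver, the microRNA gene Mir7079 with 0.79 (SE 0.54, adjusted p = 1) at 0.412 CPM in KO and 0.236 CPM in WT livers. Beside Ccdc7a, Itgb1, the integrin beta 1 chain, stood at -0.05 in kidney and 0.01 in liver, and 2610044O15Rik8 stood at -0.03 in kidney and -0.04 in liver.

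Beside Gm42031, the retromer gene Vps35 stood at -0.06 in kidney and 0.02 in liver. Zfp791, on its other side, differed between the tissues in value. The KO livers had 2.96, 1.45, 3.21, 1.35 and 3.94 CPM of Zfp791 in mice 13, 14, 15, 16 and 18, and the WT livers had 1.21, 1, 1.33 and 0.348 CPM in mice 19, 20, 22 and 24. The groups did not overlap in liver, although mice 14 and 16 lay close to the WT livers. The liver log2 fold change was 1.39 (SE 0.41) with an unadjusted p of 0.00506, and it did not pass over all genes (adjusted p = 0.879, edgeR). In kidney, Zfp791 had 2.54 to 3.8 CPM in KO and 2.32 to 3.44 CPM in WT libraries, a log2 fold change of 0.04. Both genes lie on 1 strand, so in these counts reads that run on from Gm42031 cannot be told apart from those of Zfp791 transcripts.

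Within 1 Mb of any of the 4 genes, counted between lowest coordinates, 107 other genes were tested in kidney and 94 in liver. None passed at an adjusted p under 0.05 in either tissue in edgeR, DESeq2 or limma voom. At an unadjusted p under 0.05 there were 3 in kidney, or 2.8%, namely Acta1 (log2 fold change -1.04), Calr (-0.23) and Tnpo2 (0.18). In liver there were 2, or 2.13%, namely Acta1 and Zfp791. The shares over all genes were 2.95% in kidney and 4.17% in liver. The neighbour counts moved with the processing, from 1 to 6 in kidney and 1 to 5 in liver, so nothing is read from the difference in shares. The median log2 fold change of the neighbours was 0.02 in each tissue, beside 0.01 over all genes in kidney and 0.00 in liver. Over the whole of chromosome 8 without the 4 genes, 21 of 902 genes in kidney and 24 of 795 in liver were at an unadjusted p under 0.05, and none passed after adjustment in edgeR or limma voom, while DESeq2 called 1 in liver, Irf2bp2.

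**Figure D3:**
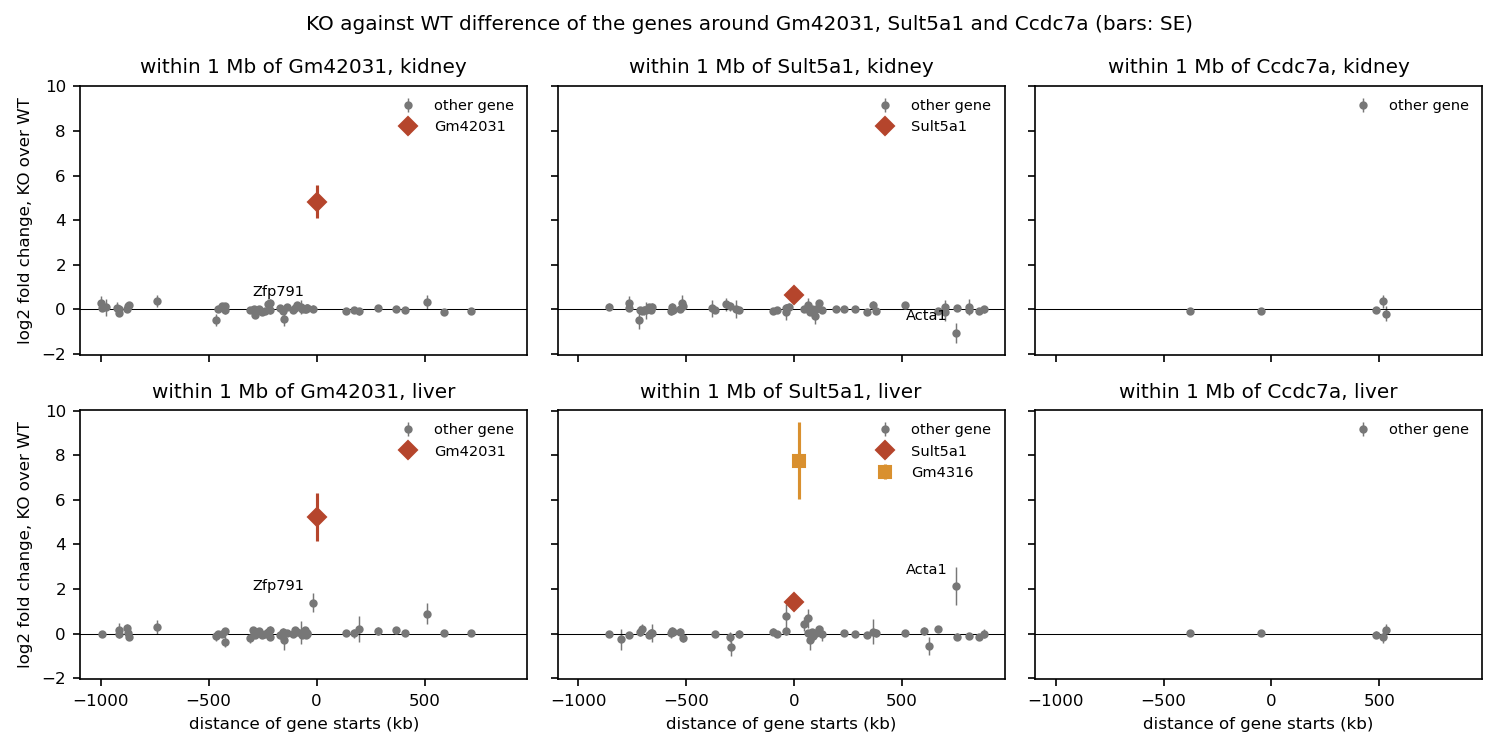
Log2 fold changes, KO over WT, of genes within 1 Mb are plotted against their distance from Gm42031, Sult5a1 or Ccdc7a (kb), in kidney (top) and liver (bottom). Distances are between lowest coordinates, called gene starts on the axis, and bars are the SE. Gm42031 and, in liver, Gm4316 stand well above their neighbours, most of which lie near 0; Ccdc7a has no point because its WT counts were 0, and neither has Gm4316 in kidney, which was below the filter.

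The other sulfotransferases put the Sult5a1 levels in context. Of 20 listed genes of the family, 12 were in the table. Per exon length, in RPKM, Sult5a1 ranked 4 of the 13 family genes in KO livers, at 14.7 ± 3.62 RPKM (SD, n = 5), and 5 in WT livers, at 5.43 ± 1.15 RPKM (SD, n = 4). Above it in liver were Sult2a8, a bile acid sulfotransferase, at 280 RPKM in KO and 260 in WT, Sult1a1, the phenol sulfotransferase, at 202 and 175 in the same order, and Sult1d1 at 47.7 in KO and 33.5 in WT. In KO livers the range of Sult5a1, 9.02 to 18.5 RPKM, overlapped that of Sult1b1, 8.86 to 13.2. In WT livers Sult5a1, at 3.88 to 6.32 RPKM, lay below Sult1b1, at 7.49 to 9.34, without overlap. Below Sult5a1 came Sult1c2, at 1.61 to 2.95 RPKM in KO and 1.15 to 2.29 in WT livers, which did not reach its range.

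In kidney the order was another one. Sult1d1 led with 239 RPKM in KO and 251 in WT kidneys, followed by Sult1c2 with 42.5 in KO and 42.9 in WT, and Sult1a1 with 16.4 in KO and 14.6 in WT. Sult5a1 ranked 5 in both genotypes, at 0.838 ± 0.0938 RPKM in KO kidneys and 0.533 ± 0.152 RPKM in WT kidneys (SD, n = 5 each). It lay below Sult1b1 without overlap in both genotypes. In WT kidneys its range, 0.321 to 0.67 RPKM, overlapped that of Sult2a3, 0.207 to 0.669.

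**Figure D4:**
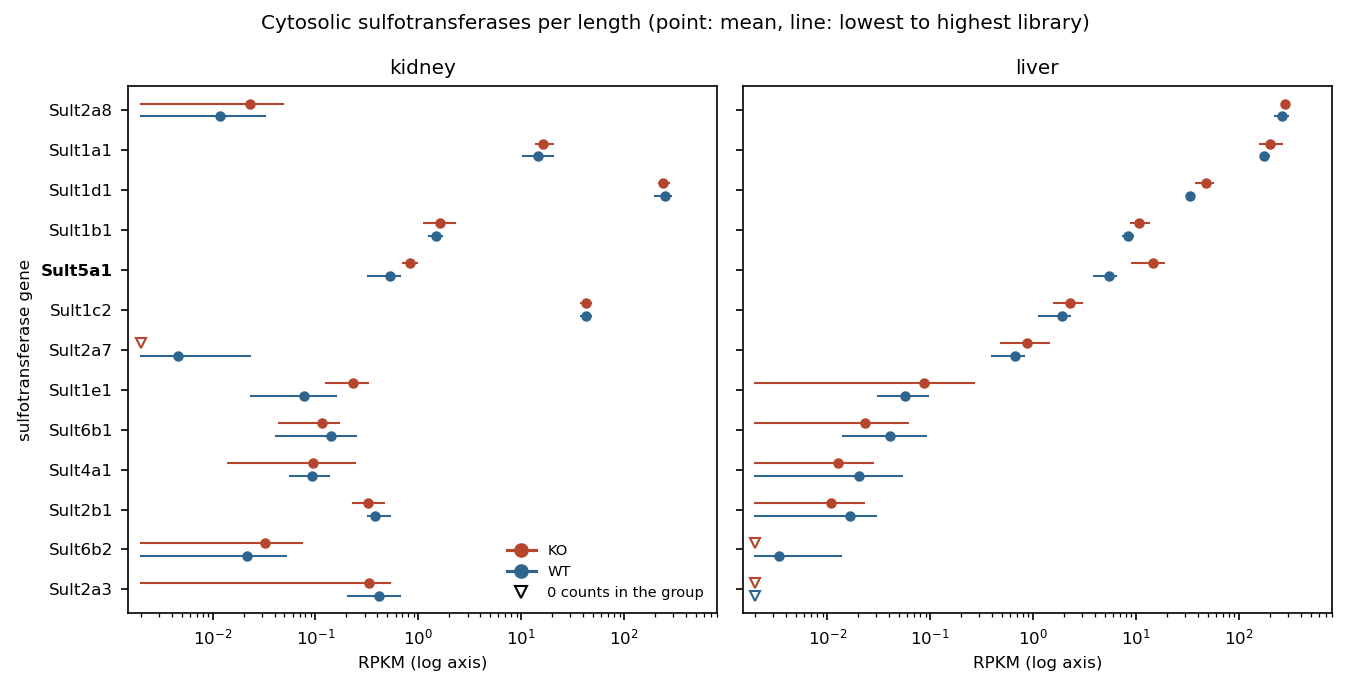
RPKM (log axis) of Sult5a1 and 12 other family genes is shown for kidney (left) and liver (right), with points for group means, lines from the lowest to the highest library and open triangles for groups with 0 counts; lines that reach the left edge include a library with 0 counts. Sult5a1 lies at 14.7 RPKM in KO livers and 5.43 RPKM in WT livers, while Sult2a8, the most abundant in liver, lies at 280 RPKM in KO and 260 RPKM in WT livers.

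None of the listed family genes passed in edgeR between KO and WT. In kidney, 2 of 7 tested genes were higher in KO by value and 5 lower, with a median log2 fold change of -0.07. None passed in edgeR, DESeq2 or limma voom and none had an unadjusted p under 0.05. The 2 genes with the smallest p in edgeR were Sult1a1 (log2 fold change 0.17) and Sult2b1 (log2 fold change -0.22), both at an adjusted p of 0.999. In liver, all 6 tested genes were higher in KO by value, with a median of 0.29 beside 0.00 over all genes, and none passed in edgeR or limma voom. For Sult1d1 the value was 0.51 on the log2 scale (SE 0.11, adjusted p = 0.453) and Sult1b1 had 0.33 (SE 0.13, adjusted p = 1). These 2 had an unadjusted p under 0.05, and DESeq2 called Sult1d1.

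Between tissues the family split. In KO mice 4 of 7 tested genes were higher in liver and 3 lower, all past the threshold. In WT mice 4 of 8 were higher and 4 lower, all past the threshold. Of these, Sult2a8 had 0.0761 CPM in KO and 0.0392 CPM in WT kidneys, and Sult2a7 had 0 and 0.00592 CPM. Sult2b1 had 0.0429 CPM in KO and 0.0656 CPM in WT livers, and Sult2a3 had 0 CPM in WT livers. These genes entered the comparisons through the tissue where they are higher, so nothing is read from their calls. Over all genes the shares were 33.9% higher and 39.8% lower in KO mice, and 33.9% higher and 41.6% lower in WT mice. Sult1a1, with 4.55 in KO and 4.49 in WT mice, and Sult1b1, with 3.63 and 3.41 in the same order, were higher in liver like Sult5a1. Sult1c2, with -3.30 in KO and -3.59 in WT mice, and Sult1d1, with -1.41 in KO and -2.00 in WT mice, were lower. Close copies within the Sult2a cluster may share reads, so the Sult2a values are uncertain.

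Genes that supply PAPS and carry sulfate showed no KO difference that passed. Of 11 listed, 10 were in the table. In kidney 2 of 10 were higher in KO and 8 lower by value, with a median of -0.05. In liver 5 of 9 were higher and 4 lower, with a median of 0.01. No gene reached an unadjusted p under 0.05 in either tissue, and DESeq2 and limma voom called none. In kidney the smallest p-values belonged to the sulfate transporter genes Slc13a4 (log2 fold change -0.14) and Slc13a1 (log2 fold change -0.07). In liver they belonged to Slc26a1, another sulfate transporter gene (log2 fold change -0.21), and the PAPS synthase Papss2 (log2 fold change 0.16). Between tissues, 3 of 10 were higher and 7 lower in liver in KO mice, and the same numbers held in WT mice. Slc13a1, among the lower genes, had no counts in the livers of either genotype and entered the comparison through kidney. Papss1, the other PAPS synthase, was lower in liver (-1.95 in KO, -2.00 in WT), and Slc35b2, which carries PAPS into the Golgi, was higher (0.92 in KO, 0.82 in WT).

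The genes whose pattern over libraries was most like that of each of the 4 were sought by the mean absolute difference in standardised log2 CPM, where 0 means identical patterns and the median over all genes was between 1.08 and 1.11. Over the 9 livers, Sult5a1 was nearest to Tc2n (0.14), Havcr2 (0.16) and Arl4a (0.21). Gm42031 ranked 7 and Gm4316 ranked 13 in likeness to Sult5a1 among 14590 genes, at 0.27 and 0.28, and Ccdc7a ranked 42 at 0.41. Gm4316 was nearest to Plcd3 (0.19), a phospholipase C gene, Rab21 (0.27), an endosomal GTPase gene, and Sult5a1 (0.28). Gm42031 was nearest to Plcd3 (0.19), AC158975.2 (0.20) and Ei24 (0.21). Ccdc7a was nearest to Metap1d (0.21), Zfp369 (0.27), on chromosome 13 like the targeted gene H2afy, and Slco1a1 (0.29), a hepatic organic anion transporter gene. Since all 4 were chosen for a KO difference, likeness among them in liver follows in part from that choice.

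The levels of some of these genes follow, as a description, since a low value of mouse 16 is part of the pattern they were sought by. Plcd3 averaged 6.27 CPM in KO livers and 0.911 CPM in WT livers, and mouse 16 had 1.15 CPM. AC158975.2 averaged 10.4 CPM in KO livers and 1.62 CPM in WT livers, and mouse 16 had 2.47 CPM. Over the 10 kidneys, Gm42031 was nearest to F630042J09Rik (0.22), Rgs14 (0.31) and Sfi1 (0.31). F630042J09Rik and Rgs14 lie on chromosome 13, as does the targeted gene H2afy, and any part of that location in their levels was not tested. F630042J09Rik averaged 1.27 CPM in KO kidneys and 0.318 CPM in WT kidneys, with 0.469 CPM in mouse 16. Rgs14 averaged 2.86 CPM in KO kidneys and 1.49 CPM in WT kidneys, with 2.7 CPM in mouse 16, and Sfi1 averaged 37.9 CPM in KO kidneys and 27 CPM in WT kidneys, with 34.6 CPM in mouse 16, so neither was near the WT mean in that mouse. Sult5a1 in kidney was nearest to Gm13110 (0.20), Gm28151 (0.23) and Cabp7 (0.26), and Gm42031 ranked 639 in likeness to it.

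Markers of other cells were checked beside these levels. Hepatocyte markers summed to 94492 to 120441 CPM in KO livers and 100780 to 101602 CPM in WT livers, and to 1088 to 1415 CPM in KO kidneys and 1098 to 1276 CPM in WT kidneys. In kidney all 6 tested hepatocyte markers were higher in KO by value, with a median log2 fold change of 0.21 beside 0.01 over all genes, led by Alb with 0.93 (SE 0.63, adjusted p = 0.999) and Apoa1 with 0.88 (SE 0.43, adjusted p = 0.999), and none passed in edgeR, DESeq2 or limma voom. Kidney markers summed to 31840 to 37517 CPM in KO kidneys and 35393 to 38773 CPM in WT kidneys, and to at most 1.79 CPM in KO livers and 3.1 CPM in WT livers. Male germ cell markers were summed because of the testis link of Ccdc7a in humans. For them, 4 of 10 genes were in the table, with 0.808 to 1.45 CPM in KO livers and 0.468 to 1.06 CPM in WT livers, and 6.91 to 11.2 CPM in KO kidneys and 9.61 to 11.5 CPM in WT kidneys, where Ccdc7a had at most 2 counts.

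Skeletal muscle markers, of which 9 of 10 were in the table, moved with genotype in liver by value. All 6 tested were higher in KO livers, with a median log2 fold change of 2.02, 5 had an unadjusted p under 0.05 and none passed in edgeR, DESeq2 or limma voom; Ckm, muscle creatine kinase, had 2.90 (SE 0.82, adjusted p = 0.766) and Mylpf, a fast muscle myosin light chain, had 0.79 (SE 0.30, adjusted p = 1). Their summed level was 15.9, 1.16, 7.14, 5.11 and 9.6 CPM in KO mice 13, 14, 15, 16 and 18, and 1.51 to 3.06 CPM in WT livers. The liver of KO mouse 14 had a muscle sum below every WT liver and had 70.3 CPM of Sult5a1, 14.8 CPM of Gm4316 and 1.03 CPM of Ccdc7a, within the range of the other KO livers, while its 3.23 CPM of Gm42031 was the second lowest of the KO livers and its 1.45 CPM of Zfp791 was near the WT livers. The liver of KO mouse 13 had the highest muscle sum, the highest Gm42031 level, 12.7 CPM, and the lowest Ccdc7a level of the KO livers. In kidney the muscle sum was 2.72 to 3.83 CPM in KO and 3.24 to 5.6 CPM in WT libraries.

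The sums of the remaining marker lists overlapped between genotypes in both tissues. Blood and immune markers summed to 709 to 2237 CPM in KO livers and 964 to 2099 CPM in WT livers, and to 858 to 1585 CPM in KO kidneys and 1180 to 1659 CPM in WT kidneys. By value, 8 of 10 tested were lower in KO livers and 2 higher, with a median log2 fold change of -0.12. In kidney 8 of 9 were lower in KO and 1 higher, with a median of -0.08. S100a8 had -2.07 in kidney and Lyz2 had -0.41 in liver, and no blood and immune marker passed in edgeR, DESeq2 or limma voom. Endothelial and stromal markers summed to 70.1 to 82.9 CPM in KO livers and 66.2 to 82.8 CPM in WT livers, and to 273 to 293 CPM in KO kidneys and 284 to 319 CPM in WT kidneys. Adipocyte and pancreas markers summed to 55.2 to 73 CPM in KO livers and 53 to 70.8 CPM in WT livers, and to 133 to 203 CPM in KO kidneys and 159 to 202 CPM in WT kidneys. Their part in the levels of the 4 genes was not tested.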

How the data were processed

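The deposited table holds raw read counts per gene without normalization for 26506 genes in 19 libraries, and each gene sums to at least 10 counts over them. Per the submitters' processing notes, Trim Galore, STAR, featureCounts, DESeq2 and the build GRCm38 were used, with no versions. No source used here states whether counting used strand. Identifiers were matched without version to GENCODE mouse release 21 (26417 matched, 89 not), which gave symbols, positions and exon lengths; promoter windows came from RefSeq.

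Groups were taken from titles. The labels do not state that libraries are separate animals; the p-values therefore reflect the variation among these libraries, which may be technical. Neither diet nor batch was given per mouse. The genes, lists and tests were chosen with earlier results of these data known.

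Each comparison was fitted with edgeR 4.0.16 (R 4.3.3) by the robust quasi-likelihood method, with TMM scaling and filterByExpr at a minimum count of 10, on the groups compared. The p-values were two-sided and Benjamini-Hochberg adjusted over all genes tested, at 0.05. CPM are TMM-scaled within tissue, and RPKM are CPM per kb of joined exon length. Standard errors come from the F statistic. Alternatives were DESeq2 1.42.0, limma 3.58.1 (voom with sample weights), other scalings and filters, 1 fit of all libraries, leaving out mice, and the mouse number as a block. The fits were tested on simulated counts.

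Liver and kidney of 1 mouse number deviated together in WT mice, with correlations across 13847 genes from 0.21 to 0.29, so the WT numbers were taken to pair libraries. On the 4 WT mice with both tissues, 12779 genes were called with the block and 12453 without it; the block changed no WT call of the 4 genes. The genes named are the 4 chosen, for each the 3 nearest by pattern and the nearest tested gene on each side, the next 3 on chromosome 8, list members past the threshold or otherwise the 2 with the smallest p, and the 3 most abundant sulfotransferases per tissue. Unc5a, Irf2bp2, Calr, Tnpo2, Ccdc7b and the tissue values of Sult1b1, Papss1 and Slc35b2 were added after their values were seen. The 9 lists hold 88 genes, 71 of them in the table.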

Additional observations from a re-analysis of the deposited data

How the results depend on the processing

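The KO against WT values of the 4 genes kept their direction under every alternative that could be fitted: log2 fold changes ran from 0.52 to 0.74 in kidney and 1.30 to 1.64 in liver for Sult5a1, 4.05 to 5.23 and 4.92 to 5.79 for Gm42031, and 5.52 to 8.13 for Gm4316 in liver, the log2 ratio of mean CPM for Gm4316 in kidney from 4.70 to 5.77, and the bound for Ccdc7a in liver from 25 to 41.7. Gm4316 and Gm42031 in liver had a value in 13 alternatives. They had none where 1 KO mouse other than mouse 16 was left out, as they were then below the filter. Since the 4 genes were chosen by their KO against WT difference, a kept direction is no support for it. Between liver and kidney, Sult5a1 ran from 4.11 to 5.18 in KO and 3.35 to 4.39 in WT mice and passed throughout. The lowest values came with library totals as the scaling, which moved the median of all genes by -0.94 in KO and -0.89 in WT mice. Gm4316 in KO mice had 2.14 with library totals (adjusted p = 0.0837), 2.30 in limma voom (adjusted p = 0.213), and 2.74 to 3.47 when 1 mouse was left out, and Gm42031 in WT mice had -1.17 in 1 fit of all 19 libraries (adjusted p = 0.436), -1.34 without mice 16 and 24 (adjusted p = 0.0622), and -1.58 to -0.89 when 1 mouse was left out. That gene passed the filter in WT mice through kidney and was not tested there at 1 CPM. With library totals it had -2.05 in WT and -1.68 in KO mice. The mouse number as a block gave -0.89 for Gm42031 in KO mice (adjusted p = 0.0207) against -0.73 without it, and 2.93 for Gm4316 (adjusted p = 0.000206). In KO mice the liver and kidney deviations correlated by 0.08 to 0.42, which did not meet the limit of 0.1 for every mouse, so the KO numbers were not taken to pair libraries; 4 of 5 KO livers correlated best with the kidney of their own number.

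The number of genes past the threshold between KO and WT moved most. In kidney it was 1, with 4 under no filter, 15 in DESeq2, 7 in limma voom, 3 in 1 fit of all libraries, 12 without mice 16 and 24, and 1 to 10 when 1 mouse was left out, highest without mouse 16. In liver it was 0, with 3 under no filter, 42 in DESeq2, 5 in limma voom, 21 in 1 fit of all libraries, 11 without mice 16 and 24, and 0 to 7 when 1 mouse was left out, highest without mouse 16. The cause was not tested. At an unadjusted p under 0.05, neighbours within 1 Mb numbered 1 to 6 in kidney and 1 to 5 in liver over the alternatives, and other sulfotransferases 0 to 1 and 1 to 3. Genes with few counts, among them Ccdc7a in kidney and Gm4316 in WT mice, could not be compared at this depth.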
